A study of Mus musculus with 14 samples.

Results

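Genes of the choroid plexus epithelium were followed in RNA-seq libraries of brains from *Rik*-null and wild type (WT) mouse pups at postnatal day 14 (P14). The set held 10 genes, *Ttr*, *Sostdc1*, *Wfikkn2*, *Folr1*, *Kl*, *Aqp1*, *Kcnj13*, *Slc4a5*, *Clic6* and *Otx2*, of 56748 genes in the count table, and all 10 were among the 18170 genes with enough counts to be tested. The 10 genes were chosen on measured values, with their difference between the genotypes and their shared variation across these same libraries already known. Their genotype differences and their correlations are therefore given as descriptions, with standard errors and no p-value. Calls of the fit over all genes are counted for the 10 beside the share called of all genes, and support nothing, while p-values are given only for other genes. The lists of other genes were also chosen with earlier results of these data known, so their calls and p-values are not independent support either.

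*Rik*-null pups (n = 8, of which 7 are labelled male and 1 female) were homozygous for a spontaneous deletion within the first intron of *2310061I04Rik* (*Rik*), and WT pups (n = 6, of which 2 are labelled male and 4 female) were their littermates. The strain label of both groups is C57BL6/J. All mutants descend from 1 event in 1 embryonic stem cell clone made for a floxed *Traf7* line, which was then crossed to C57BL/6 mice for several generations. One side of each sagittally cut brain, stored in RNAlater, was sequenced, and the amount of choroid plexus in it was not stated.

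Libraries held 15183130 to 28012811 counts in *Rik*-null brains and 18102343 to 30993890 counts in WT brains. *Rik* itself averaged 9.10 ± 0.968 CPM, counts scaled to library size, in *Rik*-null libraries and 74.2 ± 4.79 CPM in WT libraries (SD, n = 8 and 6), with no overlap, so the genotype labels held in all 14. Sex labels did not. WT 1, labelled male, had 436 CPM of the X-inactivation transcript *Xist* and 0 CPM of the Y-linked *Ddx3y*, and WT 6, labelled female, had 0.162 CPM of *Xist* and 54.8 CPM of *Ddx3y*. Most *Rik*-null libraries had *Ddx3y* and most WT libraries had *Xist*, so sex and genotype cannot be fully told apart here. *Rik*-null 5 and *Rik*-null 8 carried pituitary transcripts, with 44.5 and 184.6 CPM of growth hormone (*Gh*), against 0.134 CPM or less in the other 6 *Rik*-null libraries and 0.961 CPM or less in WT libraries.

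The choroid plexus is a fringe of folded tissue in the brain ventricles, in which a single layer of cuboidal epithelial cells surrounds leaky, fenestrated capillaries. The epithelium secretes cerebrospinal fluid by moving ions, bicarbonate and water from blood to ventricle, seals the blood-cerebrospinal fluid barrier with tight junctions, and delivers carrier proteins, vitamins and signalling proteins into the fluid. In a bulk brain sample, fewer cells of a type and less RNA per cell cannot be told apart.

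Levels of different genes were compared as deposited FPKM values, which are scaled to library size and transcript length. *Ttr* encodes transthyretin, which binds thyroid hormone and retinol-binding protein and is the main protein the epithelium secretes. It averaged 415 ± 40.9 FPKM in *Rik*-null brains and 320.0 ± 53.5 FPKM in WT brains (SD, n = 8 and 6), 121 times the level of the next gene of the set in WT, and it held 88.4% of all counts of the 10 genes. Every other gene was a low-level transcript in these brain samples, and the counts of these 9 genes in 1 library ran from 10 for *Kcnj13* to 462 for *Kl*.

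The other 9 genes averaged 0.875 to 3.66 FPKM in *Rik*-null brains and 0.593 to 2.64 FPKM in WT brains. In WT the order ran *Sostdc1*, *Clic6*, *Aqp1*, *Otx2*, *Folr1*, *Kl*, *Kcnj13*, *Wfikkn2* and *Slc4a5*. The mean ± SD of each neighbour in that order overlapped that of the next, for example *Otx2* at 1.70 ± 0.301 FPKM and *Folr1* at 1.59 ± 0.376 FPKM. In *Rik*-null brains the order was the same at both ends, with *Folr1* above *Otx2*, at 2.71 ± 0.250 and 2.13 ± 0.371 FPKM, and *Wfikkn2* had rank 7 of the 10, against rank 9 in WT.

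All 10 genes had a higher mean CPM in *Rik*-null brains. The log2 fold change of *Rik*-null over WT ran from 0.05 for *Kl* to 1.23 for *Wfikkn2*, with a median of 0.42, beside a median of 0.0017 over all 18170 genes tested. At an adjusted p of 0.05 (edgeR's quasi-likelihood test with Benjamini-Hochberg adjustment over all genes tested), 5 of the 10 genes, *Ttr*, *Sostdc1*, *Wfikkn2*, *Folr1* and *Aqp1*, were called higher and 0 were called lower, and over all genes tested 1.12% were called higher and 2.20% lower. In 3 genes, *Sostdc1*, *Wfikkn2* and *Folr1*, the 2 groups did not overlap, and over all genes 0.517% lay wholly higher and 1.23% wholly lower in *Rik*-null libraries. These shares are printed as background only, since the 10 genes were picked with this contrast known.

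**Figure D1:**
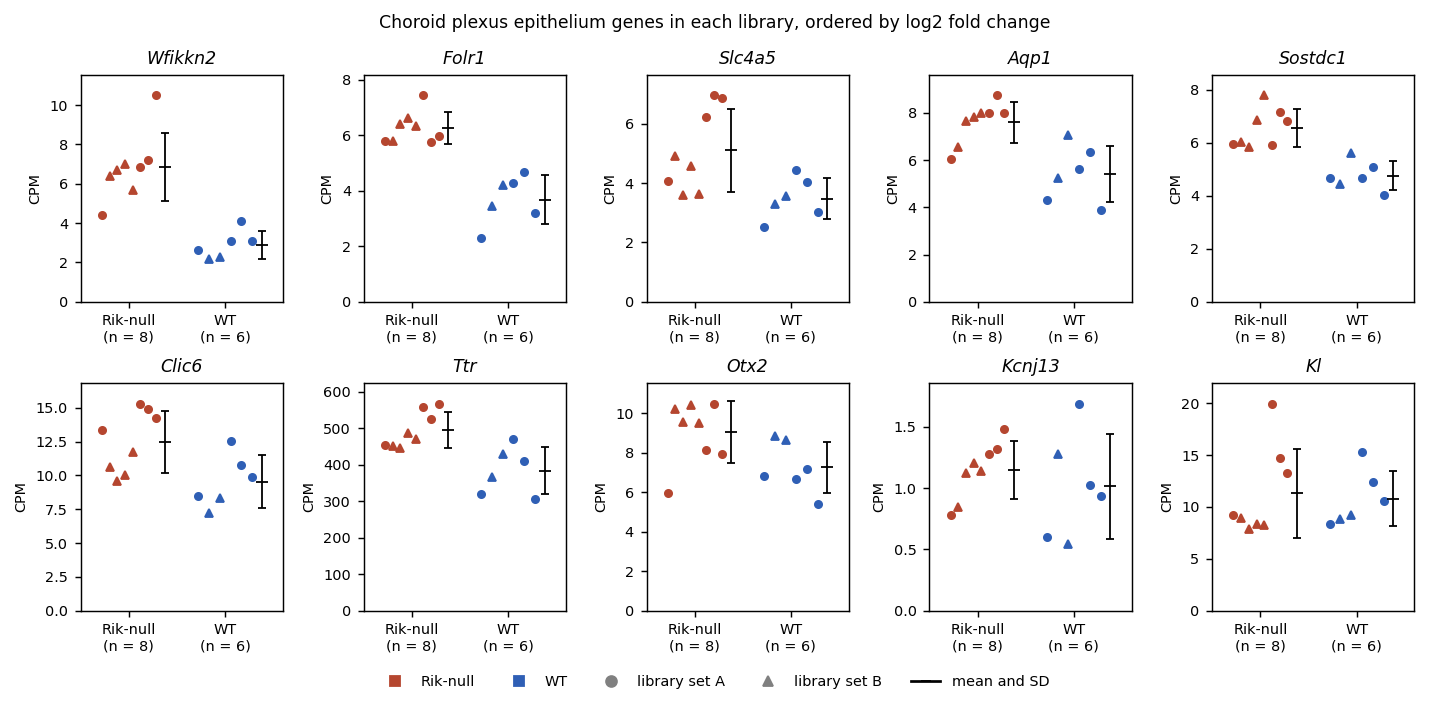
CPM (y axis, from 0) of the 10 genes in each *Rik*-null (red, n = 8) and WT (blue, n = 6) library, with points in replicate order, circles and triangles for the 2 library sets A and B, and black bars for the mean and SD. *Wfikkn2*, *Folr1* and *Sostdc1* show no overlap between the genotypes, while *Kl* and *Kcnj13* overlap almost wholly.

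Among the secreted proteins, *Wfikkn2* stood furthest apart. It encodes a protease-inhibitor-domain protein that binds and blocks the growth factors myostatin and Gdf11, and lies at chr11:94235951-94247793 (RefSeq, GRCm38.p6). In *Rik*-null brains it had from 4.42 to 10.5 CPM with a median of 6.77, against 2.17 to 4.11 CPM with a median of 2.85 in WT brains. The log2 fold change was 1.23 (SE 0.17), 2.35-fold. The lowest *Rik*-null library, *Rik*-null 1, was above the highest WT library, WT 5, by a small margin, and *Rik*-null 8 was the highest of all.

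*Ttr*, on chromosome 18, ran from 446 to 567 CPM in *Rik*-null brains with a median of 478, against 307 to 470 CPM with a median of 387 in WT brains. Its log2 fold change was 0.37 (SE 0.09), 1.29-fold. The groups overlapped through WT 4 alone, at 470 CPM, and the other 5 WT libraries were below every *Rik*-null library. *Sostdc1* encodes a secreted antagonist of BMP and Wnt signals and lies at chr12:36314169-36318452. It had 5.85 to 7.80 CPM in *Rik*-null brains with a median of 6.43, against 4.01 to 5.63 CPM with a median of 4.67 in WT brains, a log2 fold change of 0.47 (SE 0.09). All 8 *Rik*-null libraries lay above all 6 WT libraries.

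Of the receptors, *Folr1* and *Kl* sat at opposite ends. *Folr1* encodes the folate receptor that carries folate across the epithelium into cerebrospinal fluid, and lies at chr7:101858331-101870788. *Rik*-null brains had from 5.74 to 7.45 CPM with a median of 6.15, against 2.29 to 4.67 CPM with a median of 3.83 in WT brains, a log2 fold change of 0.75 (SE 0.13), 1.69-fold. The *Rik*-null libraries were packed closely, with an SD of 0.13 on the log2 scale, against 0.37 in WT. *Folr1* overlaps *Anapc15* on the opposite strand in the table's coordinates, with 1613 and 2679 counts in all libraries together, and since the strand setting of the counting is not given, reads of this pair cannot be told apart.

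*Kl* encodes klotho, the co-receptor for the phosphate-regulating hormone Fgf23, whose ectodomain is also shed into cerebrospinal fluid, and lies at chr5:150952607-150993817. It ran from 7.88 to 19.9 CPM in *Rik*-null brains with a median of 9.05, against 8.39 to 15.3 CPM with a median of 9.89 in WT brains, and the log2 fold change was 0.05 (SE 0.20). The medians and the means thus had opposite order, and 1 *Rik*-null library lay above the highest WT library. The high libraries were *Rik*-null 6, 7 and 8 and WT 4 and 5, and the other 5 *Rik*-null libraries lay between 7.88 and 9.19 CPM.

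Channels and transporters ran from a log2 fold change of 0.14 for *Kcnj13* to 0.54 for *Slc4a5*. *Aqp1*, the apical water channel of the epithelium, lies at chr6:55336299-55348555 and had 6.03 to 8.74 CPM in *Rik*-null brains with a median of 7.90, against 3.88 to 7.05 CPM with a median of 5.43 in WT brains. Its log2 fold change was 0.50 (SE 0.12). WT 3, at 7.05 CPM, was above the lowest *Rik*-null libraries, *Rik*-null 1 and 2, and 6 of 8 *Rik*-null libraries were above all WT libraries.

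*Slc4a5*, a sodium bicarbonate cotransporter of the apical membrane, lies at chr6:83207580-83304945. *Rik*-null brains gave 3.60 to 6.96 CPM with a median of 4.74, against 2.51 to 4.43 CPM with a median of 3.42 in WT brains, a log2 fold change of 0.54 (SE 0.17). This was the third highest fold change of the 10 genes, but the *Rik*-null libraries divided into *Rik*-null 6, 7 and 8 at 6.24 to 6.96 CPM and the rest at 4.90 CPM or less.

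*Clic6*, a member of the chloride intracellular channel family, lies at chr16:92498147-92541241 and had 9.57 to 15.3 CPM in *Rik*-null brains with a median of 12.6, against 7.21 to 12.6 CPM with a median of 9.20 in WT brains. The log2 fold change was 0.37 (SE 0.13). WT 4 was level with the *Rik*-null median and the other 5 WT libraries were below it. *Kcnj13*, the inward-rectifier potassium channel Kir7.1 at chr1:87384577-87394729, had 0.776 to 1.48 CPM in *Rik*-null brains with a median of 1.17, against 0.546 to 1.69 CPM with a median of 0.983 in WT brains, a log2 fold change of 0.14 (SE 0.23). With 10 to 51 counts per library, counting error alone was 19.7% of its mean, and it lies inside *Gigyf2* on the opposite strand, which had 22931 counts against 359 for *Kcnj13*, so stray reads of *Gigyf2* could not be separated.

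*Otx2*, the homeobox transcription factor that specifies choroid plexus epithelium and is kept on in the adult tissue, lies at chr14:48656781-48667644. It ran from 5.97 to 10.5 CPM in *Rik*-null brains with a median of 9.55, against 5.41 to 8.84 CPM with a median of 6.99 in WT brains, and the log2 fold change was 0.33 (SE 0.13). *Rik*-null 1 was low, at 5.97 CPM, and 5 of 8 *Rik*-null libraries were above every WT library.

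Leaving out any 1 of the 14 libraries kept the call for *Wfikkn2*, *Folr1* and *Sostdc1*, while *Ttr* stayed called in 7 and *Aqp1* in 5 of the 14. Only 3 of the 10 genes were called without *Rik*-null 4, *Rik*-null 7, *Rik*-null 8, WT 1, WT 2 or WT 6, each left out alone. Calls over all genes tested fell in these fits too, from 602 to 310, 479, 516, 317, 441 and 300, in this order. Labelled sex goes against *Xist* and *Ddx3y* in WT 1 and WT 6, so here and below a term for it does not fully adjust for sex. With labelled sex as a term the fit called 3 of the 10 genes higher, beside 0.237% of all genes tested. With that term and without WT 1 and WT 6 it called 0 of the 10 higher or lower, beside 0.00% of all genes tested higher, and at an unadjusted p under 0.05 it put 6 of the 10 higher, beside 3.20% of all genes. Without those libraries, whose sex labels went against their sex-linked transcripts, and with no sex term it called 2, *Folr1* and *Wfikkn2*, beside 0.232%, and without *Rik*-null 5 and *Rik*-null 8, which held pituitary RNA, it called 3, beside 0.413%. In these 4 fits, in this order, the log2 fold change of *Wfikkn2* was 1.29, 1.26, 1.22 and 1.14, and that of *Ttr* was 0.43, 0.29, 0.24 and 0.34.

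The libraries were also split into 2 sets by the sign of the second principal component of the 500 most variable genes. This component carried 24.4% of their variance with the 10 genes left out. The first component, with 29% of it, was positive only in *Rik*-null 5 and WT 1, 3, 4 and 5, the libraries with high *Xist*. Set A held *Rik*-null 1, 6, 7 and 8 and WT 1, 4, 5 and 6, and set B held *Rik*-null 2, 3, 4 and 5 and WT 2 and 3. These sets were defined from the data and are not groups of the study. *Kl* averaged 14.3 CPM in *Rik*-null and 11.7 CPM in WT libraries of set A, against 8.34 CPM in *Rik*-null and 9.02 CPM in WT libraries of set B. *Clic6* had the same order, with 14.5 CPM in *Rik*-null and 10.4 CPM in WT libraries of set A, against 10.5 and 7.79 CPM in set B.

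*Otx2* had the opposite order, at 8.13 CPM in *Rik*-null and 6.51 CPM in WT libraries of set A, against 9.94 CPM in *Rik*-null and 8.74 CPM in WT libraries of set B. *Folr1* was nearly level across the sets, at 6.24 CPM in *Rik*-null and 3.61 CPM in WT libraries of set A, against 6.29 and 3.83 CPM in set B. Within set A the log2 fold change of *Rik*-null over WT was positive for all 10 genes, and within set B, where WT had 2 libraries, it was positive for 9, with *Kl* at −0.10 (SE 0.11). *Wfikkn2* had 1.18 (SE 0.22) within set A and 1.53 (SE 0.16) within set B, and *Slc4a5* had 0.77 (SE 0.20) and 0.30 (SE 0.17). The part of the sets in these values was not tested beyond this.

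Because *Ttr* is the most abundant of the 10, the other 9 were also set against it within each library, as counts per 1000 *Ttr* counts, a ratio that does not depend on library size. Most of the ratios were close in the 2 genotypes. *Clic6* had 25.1 ± 3.21 counts per 1000 *Ttr* counts in *Rik*-null brains and 25.2 ± 4.87 in WT brains, *Otx2* had 18.4 ± 3.85 and 19.2 ± 3.49, *Sostdc1* had 13.3 ± 1.72 and 12.6 ± 1.57, and *Aqp1* had 15.4 ± 1.51 and 14.1 ± 1.68 (SD, n = 8 *Rik*-null and 6 WT throughout).

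*Wfikkn2* and *Folr1* kept a higher ratio. *Wfikkn2* had 13.7 ± 2.56 counts per 1000 *Ttr* counts in *Rik*-null brains and 7.68 ± 2.05 in WT brains, a difference of 0.86 on the log2 scale (SE 0.19), and *Rik*-null 1, at 9.73, was the only *Rik*-null library within the WT range of 5.34 to 10.03. *Folr1* had 12.7 ± 1.33 in *Rik*-null brains and 9.56 ± 1.42 in WT brains, a difference of 0.42 (SE 0.11), with *Rik*-null 7 and 8 inside the WT range. *Kl* had the lower ratio, at 22.4 ± 6.51 in *Rik*-null brains and 28.2 ± 5.03 in WT brains, a difference of −0.36 (SE 0.17), and its groups overlapped. *Ttr*, the divisor, itself had a log2 fold change of 0.37 and *Kl* one of 0.05, so this ratio shows no fall of *Kl*. The ratios of *Slc4a5* and *Kcnj13* differed by 0.15 (SE 0.11) and −0.12 (SE 0.25).

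**Figure D2:**
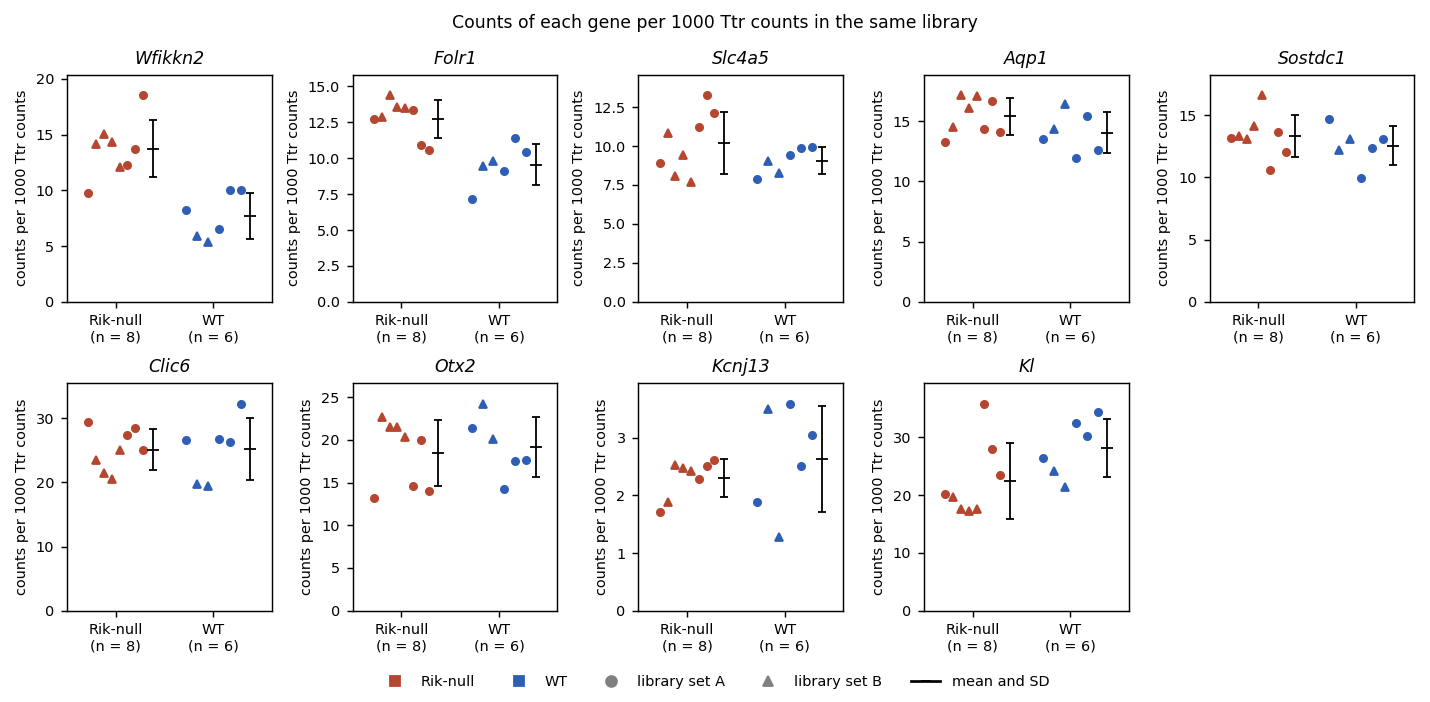
Counts of 9 genes per 1000 *Ttr* counts of the same library (y axis, from 0) in *Rik*-null (red, n = 8) and WT (blue, n = 6) libraries, with circles and triangles for the 2 library sets and black bars for the mean and SD. *Wfikkn2* averaged 13.7 in *Rik*-null and 7.68 in WT libraries, while *Clic6*, at 25.1 and 25.2, shows no such shift.

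How the 10 genes varied from library to library was described after the mean of each genotype was removed on the log2 CPM scale. Over the 14 libraries, 40 of the 45 pairs of genes had a Pearson r above 0, with a median of 0.41 and a range of −0.51 to 0.87 (Spearman's rho had a median of 0.37). The median was 0.36 within the 8 *Rik*-null libraries and 0.44 within the 6 WT libraries. It was 0.67 within set A, where all 45 pairs were above 0, and 0.09 within the 6 libraries of set B, where 26 were. The points of every pair share library depth, tissue portion and scaling, so these values have no p and describe these libraries.

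The closest pairs were *Kl* with *Clic6*, at r = 0.87 (rho 0.84), *Kl* with *Slc4a5*, at 0.84 (rho 0.86), *Ttr* with *Slc4a5*, at 0.80 (rho 0.79), *Ttr* with *Aqp1*, at 0.78 (rho 0.79), and *Sostdc1* with *Aqp1*, at 0.73 (rho 0.74). Each stayed at 0.60 or above when the 2 libraries farthest from the median of either gene were left out. Within set B, *Kl* with *Clic6* had 0.44 and *Ttr* with *Slc4a5* 0.27, while *Ttr* with *Aqp1* had 0.85 in both sets. *Otx2* ran against *Clic6*, at r = −0.51 (rho −0.58), and against *Kl*, at −0.22 (rho −0.33), but within set A both pairs were above 0, at 0.30 and 0.49.

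**Figure D3:**
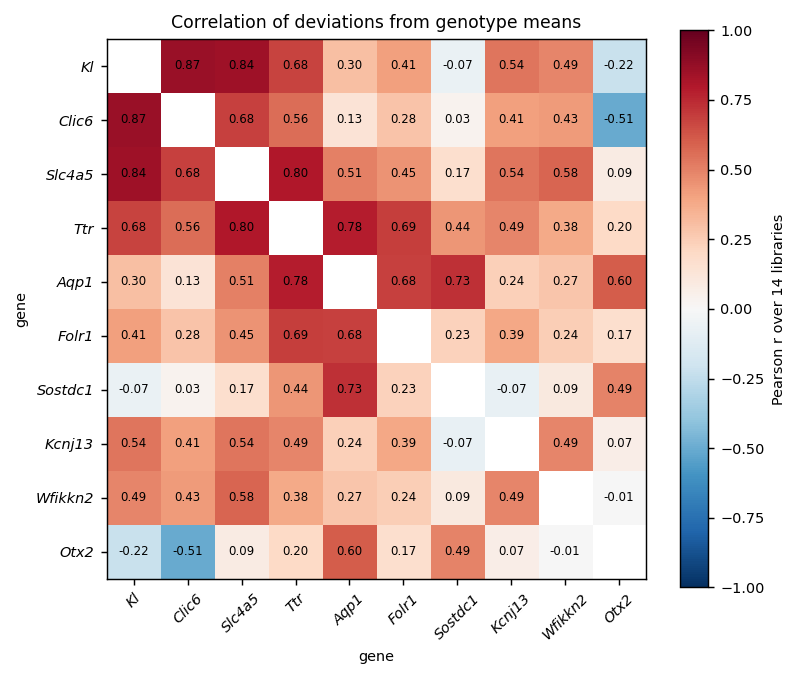
Pearson r over the 14 libraries (colour, and printed in each cell) between the deviations of each pair of the 10 genes from their genotype means. The block of *Kl*, *Clic6*, *Slc4a5* and *Ttr* holds high values, up to 0.87, and the row of *Otx2* holds the lowest, −0.51 with *Clic6*.

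Each gene was then set against the mean standardised deviation of the other 9. *Ttr* followed the others most closely, at r = 0.89 (rho 0.86), and 4 of 15805 other genes of at least 1 CPM followed the same 9 more closely. *Slc4a5* had 0.81 (rho 0.77), with 15 other genes ahead of it, and *Aqp1* had 0.73 (rho 0.84), with 282 ahead. *Sostdc1* and *Otx2* followed least, at 0.33 (rho 0.37) and 0.14 (rho 0.12), with 28.0% and 41.1% of the other genes ahead of them.

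The mean standardised deviation of all 10 genes was lowest in WT 1, at −0.99, *Rik*-null 1, at −0.94, and WT 6, at −0.71. It was highest in WT 4, at 0.87, WT 5, at 0.78, and *Rik*-null 7, 8 and 6, at 0.72, 0.68 and 0.57. In WT 1, 0 of the 10 genes were above their WT mean, and in *Rik*-null 7 and in WT 5, 9 were above their own genotype's mean. The low and high libraries of both genotypes were all in set A, and those of set B lay between −0.49 and 0.28. The lowest, WT 1 and *Rik*-null 1, were also those nearest the border between the sets.

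**Figure D4:**
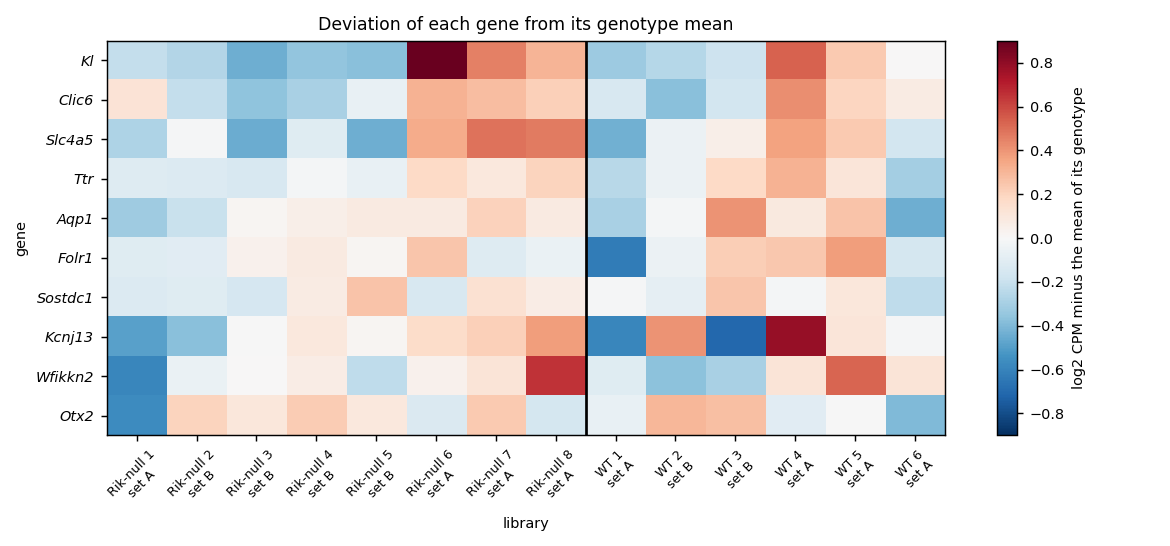
Deviation of log2 CPM from the mean of its genotype (colour) for the 10 genes (rows) in the 8 *Rik*-null libraries, left of the black line, and the 6 WT libraries. *Kl*, *Clic6* and *Slc4a5* are red together in *Rik*-null 6, 7 and 8 and in WT 4 and 5, and WT 1 has no gene above its WT mean.

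Of the 15805 other genes, the 10 whose deviations were most like the mean of the set over the 14 libraries were *Phka2*, at r = 0.90, *Svep1*, *Tnfrsf18*, *Stat6*, *Mfrp*, *Nt5c1a*, *Arhgap42*, *Ubxn11*, *Tmem72* and *Wdr37*, the last at 0.83. *Mfrp*, a frizzled-related membrane protein, and *Tmem72*, a membrane protein of unknown role, are 2 of the 44 further genes listed here for choroid plexus epithelium. Values as far from 0 were reached in the other direction too, where the lowest r was −0.89 and 17 genes lay at −0.83 or below. In edgeR 0 of these 10 passed the test between the genotypes, beside 1.12% higher and 2.20% lower of all genes tested. At an unadjusted p under 0.05, 3 were higher and 0 lower, beside 8.34% and 10.3%. DESeq2 called 1 of them, *Mfrp*, higher, beside 3.03% of all genes. *Mfrp* had 3.93 ± 1.38 CPM in *Rik*-null and 2.28 ± 0.696 CPM in WT brains (SD, n = 8 and 6; log2 fold change 0.75, SE 0.23, edgeR adjusted p = 0.0814, DESeq2 adjusted p = 0.0191).

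RefSeq's promoter table (GRCm38.p6, 300 bases a window, 250 before and 50 from the start of the transcript) matched 6 of the 10 genes, with 9 windows. Sequence is shown for *Wfikkn2*, the gene with the largest difference between the genotypes, for *Aqp1*, an intermediate one, and for *Kl*, the one with the smallest, over the bases before the start that lie in no annotated exon. The *Wfikkn2* stretch, of 122 bases, belongs to a start inside the span given above for that gene. Those of *Aqp1* and *Kl* border the outer ends of their genes. The windows were searched on both strands for TAATCC, the motif bound by OTX factors. It was in 1 of the 9 windows, a window of *Otx2* itself, beside 7.06% of all 32851 windows, and in none of the 3 stretches below, so they hold no capitals. Capitals in the *Otx2* line mark the match, read on the other strand, 211 bases before that start. That window had 0 bases counted as free of annotated exons. The *Otx2* line, unlike the other 3, is thus not shown as sequence outside exons.
*Wfikkn2*, chr11:94242708-94242829, minus strand: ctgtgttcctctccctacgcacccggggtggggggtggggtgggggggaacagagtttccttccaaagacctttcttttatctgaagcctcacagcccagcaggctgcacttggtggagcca
*Aqp1*, chr6:55336049-55336298, plus strand: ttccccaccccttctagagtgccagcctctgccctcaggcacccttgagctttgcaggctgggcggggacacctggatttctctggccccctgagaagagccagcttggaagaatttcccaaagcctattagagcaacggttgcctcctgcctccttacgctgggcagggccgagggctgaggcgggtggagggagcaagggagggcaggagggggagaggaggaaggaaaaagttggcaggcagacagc
*Kl*, chr5:150952357-150952606, plus strand: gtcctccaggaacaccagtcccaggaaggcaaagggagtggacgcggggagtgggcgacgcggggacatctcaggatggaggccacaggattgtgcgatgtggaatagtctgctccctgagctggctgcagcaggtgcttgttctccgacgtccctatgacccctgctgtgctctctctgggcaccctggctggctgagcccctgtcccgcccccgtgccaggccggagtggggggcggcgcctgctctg
*Otx2*, chr14:48665303-48665332, minus strand: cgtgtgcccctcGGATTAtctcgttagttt
A match is only a description of these letters, and its absence from the other windows says nothing of the factor. The windows of *Wfikkn2*, *Aqp1* and *Kl* were 60.0%, 62.7% and 67.3% G and C, above the median of 52.7% over all windows, while that of *Kcnj13* was 46.0%.

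A further 44 genes of the epithelium were listed by role, and 42 had enough counts to be tested. Of these, 2 rose, *Msx1* and *Col8a1*, and 0 fell, beside 1.12% and 2.20% of all genes tested. *Msx1*, a homeobox transcription factor, had 6.51 to 7.88 CPM in *Rik*-null brains with a median of 6.77, against 4.81 to 6.40 CPM with a median of 5.44 in WT brains (log2 fold change 0.34, SE 0.08, edgeR adjusted p = 0.0280), and its groups did not overlap. *Col8a1*, a short-chain collagen, had 6.69 to 10.7 CPM with a median of 8.16 in *Rik*-null brains, against 3.87 to 7.85 CPM with a median of 5.78 in WT brains (0.50, SE 0.13, edgeR adjusted p = 0.0468). *Col8a1* kept its call in 3 and *Msx1* in 11 of the 14 fits that each left out 1 library, and both lost it with labelled sex as a term, at adjusted p = 0.0852 and 0.111 (edgeR).

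At an unadjusted p under 0.05 in edgeR, 14 of the 42 were higher and 2 lower, beside 8.34% and 10.3% of all genes tested. DESeq2 called 3 higher and 0 lower, beside 3.03% and 3.46%. Of the 42, 38 had a log2 fold change above 0, with a median of 0.19, beside 50.5% of all genes tested above 0. The 6 junction proteins and epithelial keratins had the highest median, 0.48, with *Krt18* at 0.71 (SE 0.24, edgeR adjusted p = 0.119) and *Krt8* at 0.64 (SE 0.27), and 0 of them passed the edgeR or the DESeq2 test, with 4 at an unadjusted p under 0.05 in edgeR. Among 13 nutrient and solute transporters tested the median was 0.06 and 4 were below 0, among them *Slc22a8*, an organic anion transporter, at −0.25 (SE 0.07, edgeR adjusted p = 0.0825). The most abundant of the list, *Enpp2*, which encodes autotaxin, had 373 ± 90.6 CPM in *Rik*-null and 352 ± 74.1 CPM in WT brains (SD, n = 8 and 6), and *Slc4a10*, a sodium-coupled bicarbonate transporter also of neurons, had 211 ± 21.3 and 195 ± 13.8 CPM. Neither passed the test.

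**Figure D5:**
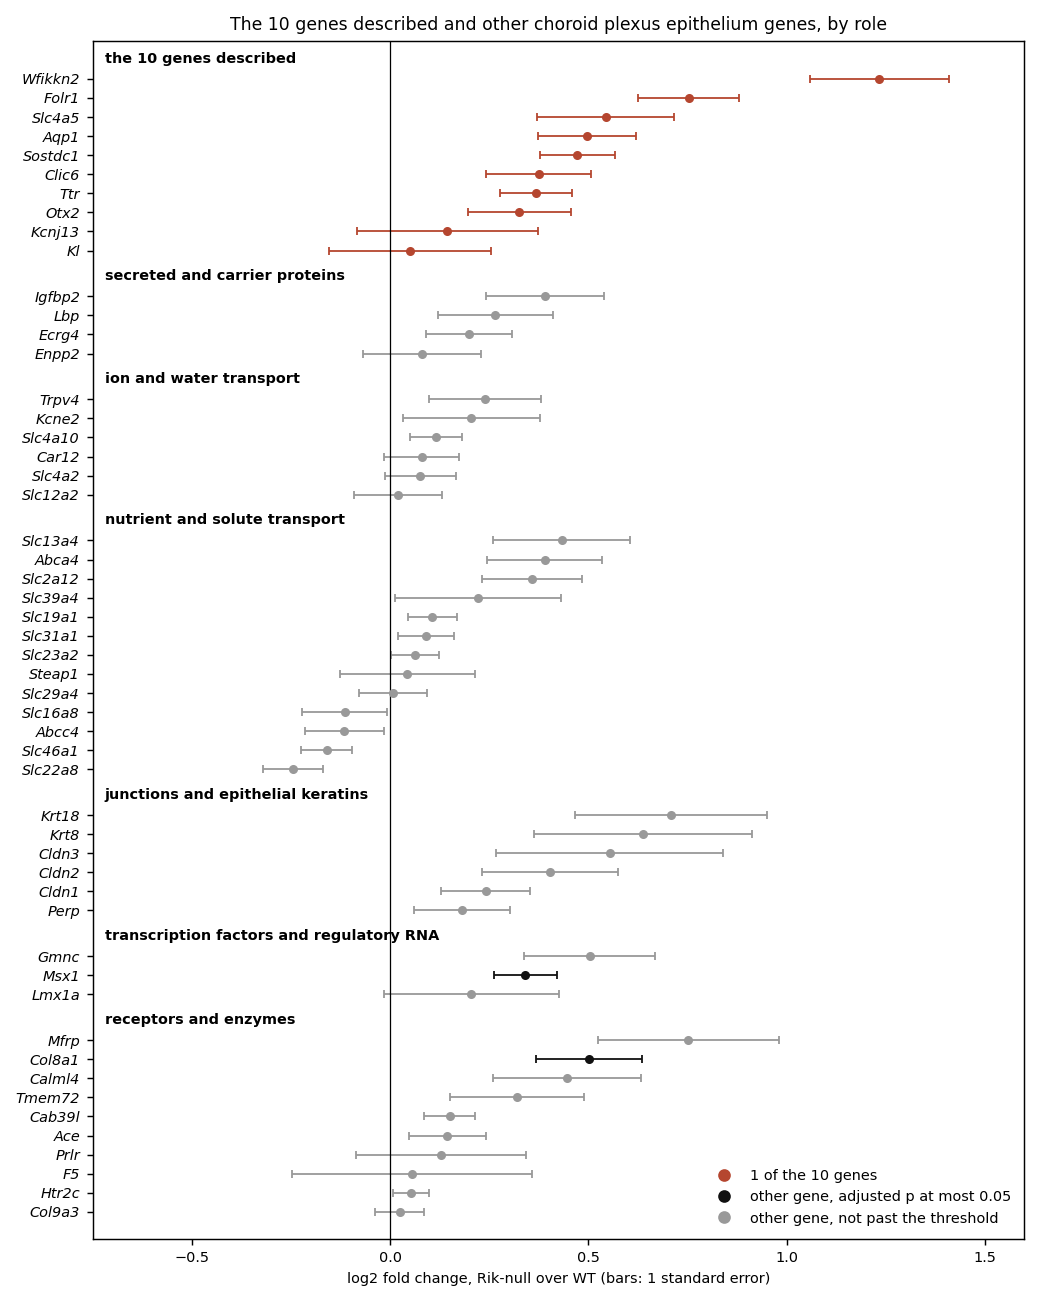
Log2 fold change of *Rik*-null over WT (x axis, with bars of 1 standard error) for the 10 genes (red) and the 42 other choroid plexus epithelium genes tested, grouped by role, where black marks an edgeR adjusted p of at most 0.05. *Msx1* and *Col8a1* are the 2 in black, and 38 of the 42 lie right of 0.

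Genes that the proteins of the set act through or with were listed by partner, and 36 of 38 were tested. Of these 2 rose and 0 fell, beside the same 1.12% and 2.20%, and both belong to the 7 genes of BMP and Wnt signalling that *Sostdc1* meets. *Lrp4*, a receptor that binds *Sostdc1* protein, had 28.9 to 38.6 CPM in *Rik*-null brains with a median of 33.3, against 24.5 to 30.9 CPM with a median of 26.8 in WT brains (log2 fold change 0.28, SE 0.07, edgeR adjusted p = 0.0294). *Bmp7*, a ligand, had 12.1 to 15.6 CPM with a median of 14.0 in *Rik*-null brains, against 10.7 to 12.5 CPM with a median of 11.6 in WT brains (0.26, SE 0.06, edgeR adjusted p = 0.0331). The groups of both genes overlapped. DESeq2 called 3 of the 36 higher and 0 lower, beside 3.03% and 3.46% of all genes tested. At an unadjusted p under 0.05 in edgeR, 4 were higher and 1 lower, beside 8.34% and 10.3%. *Lrp4* kept its call in 10 of the 14 fits that left out 1 library, losing it without *Rik*-null 3, *Rik*-null 7, WT 1 or WT 4, and *Bmp7* kept its call in 7 of the 14. With labelled sex as a term their adjusted p was 0.104 and 0.103 (edgeR).

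Of 10 genes of thyroid hormone transport, conversion and response, 0 passed in edgeR or DESeq2 and 1 had an unadjusted p under 0.05 in edgeR, and their median log2 fold change was −0.03. *Thra*, the more abundant thyroid hormone receptor gene, had 769 ± 79.9 CPM in *Rik*-null and 694 ± 73.4 CPM in WT brains (SD, n = 8 and 6), and *Klf9*, a gene induced by the hormone, had 248 ± 15.9 and 244 ± 18.0 CPM. The targets of *Wfikkn2* protein were low or close in the 2 genotypes, with *Gdf11* at 29.5 CPM in *Rik*-null and 28.6 CPM in WT brains and myostatin (*Mstn*) at 0.575 and 0.569 CPM. In edgeR and in DESeq2, 0 of 9 genes of myostatin and Gdf11 signalling, 0 of 5 Fgf23 receptor genes and 0 of 5 folate enzymes and receptors passed, with 0, 0 and 1 at an unadjusted p under 0.05 in edgeR.

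Markers of other tissue that a brain sample can carry were followed beside the set. Of 14 genes of meningeal and stromal fibroblasts 3 rose and 0 fell in edgeR, 10 were higher and 0 lower at an unadjusted p under 0.05, and DESeq2 called 6 higher and 0 lower. Over all genes tested the shares were 1.12% and 2.20%, 8.34% and 10.3%, and 3.03% and 3.46%, in this order. They apply to the marker lists below too. *Dcn*, the matrix proteoglycan decorin, had 20.5 to 30.2 CPM in *Rik*-null and 14.8 to 18.3 CPM in WT brains (log2 fold change 0.59, SE 0.08, edgeR adjusted p = 0.00117), *Slc22a6*, an organic anion transporter, 6.03 to 9.05 and 3.88 to 5.76 CPM (0.56, SE 0.11, edgeR adjusted p = 0.00780), and *Aldh1a2*, which makes retinoic acid, 7.12 to 10.7 and 5.08 to 7.32 CPM (0.50, SE 0.11, edgeR adjusted p = 0.0257). With labelled sex as a term *Dcn* kept its call, while *Slc22a6* and *Aldh1a2* lost theirs, at adjusted p = 0.0633 and 0.170 (edgeR), and *Aldh1a2* also lost it without *Rik*-null 3, WT 1 or WT 6, each left out alone. The most abundant of the list, *Ptgds*, which encodes prostaglandin D2 synthase, had 558 ± 105 CPM in *Rik*-null and 386 ± 105 CPM in WT brains (SD, n = 8 and 6; edgeR adjusted p = 0.0725, DESeq2 adjusted p = 0.0415), and the collagen gene *Col1a2* had 54.7 to 78.5 CPM in *Rik*-null and 47.5 to 69.4 CPM in WT brains (edgeR adjusted p = 0.151). The summed level of the 14, most of it *Ptgds*, was 640 to 952 CPM in *Rik*-null and 384 to 714 CPM in WT brains, with none at 0 in any library, and it was thus higher in *Rik*-null brains beside the 10 genes. Its part in their difference was not tested. Over the 14 libraries, after removal of the genotype means, the mean deviation of these 14 genes followed that of the 10 at r = 0.44, beside 0.70 for ependymal and 0.52 for red blood cell markers and 0.92 for the 42 further genes of the epithelium. Means over more genes average out more noise, so these values cannot be compared directly across lists of unlike length. The median r of single genes was 0.38 for the fibroblast, 0.54 for the ependymal and 0.51 for the red blood cell list. It was 0.52 for the 42 further genes.

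Ependymal cells, the ciliated cells that line the ventricles beside the choroid plexus, gave 0 calls in edgeR and DESeq2 among 11 of 12 markers tested and 2 at an unadjusted p under 0.05 in edgeR, with a summed level of 35.5 to 43.6 CPM in *Rik*-null and 24.2 to 40.6 CPM in WT brains and a median log2 fold change of 0.15. *Foxj1*, the regulator of motile cilia, had 15.1 ± 2.92 CPM in *Rik*-null and 13.7 ± 2.86 CPM in WT brains, and the axonemal dynein *Dnah11* 3.93 ± 1.28 and 3.50 ± 0.888 CPM (SD, n = 8 and 6). The 3 markers of fenestrated endothelium, the vessel type of the choroid plexus, summed to 23.8 to 30.1 CPM in *Rik*-null and 25.2 to 26.2 CPM in WT brains with 0 calls in edgeR and DESeq2 and 0 at an unadjusted p under 0.05, with *Plvap* at 8.69 ± 1.11 and 8.64 ± 0.708 CPM and *Plpp1* at 17.4 ± 1.56 and 16.3 ± 0.618 CPM.

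Of 5 markers of barrier endothelium, the vessel type of the rest of the brain, *Mfsd2a*, a lipid transporter, fell, to 46.0 ± 3.09 CPM in *Rik*-null brains, against 55.4 ± 0.733 CPM in WT brains (SD, n = 8 and 6; log2 fold change −0.27, SE 0.05, edgeR adjusted p = 0.00404), and with labelled sex as a term it lost its call, at adjusted p = 0.0526 (edgeR). The 5 summed to 209 to 266 CPM in *Rik*-null and 255 to 312 CPM in WT brains, and *Slc2a1* and *Cldn5* did not pass the test. Retinal pigment epithelium shares *Ttr*, *Otx2* and *Kcnj13* with the choroid plexus, and its 8 markers summed to 2.90 to 4.38 CPM in *Rik*-null and 3.01 to 4.18 CPM in WT brains, with *Rpe65* at 0.164 and 0.131 CPM on average and *Rgr* at 0 in 5 *Rik*-null and 5 WT libraries.

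The pineal gland also expresses *Otx2*. Its 5 markers summed to 1.52 to 3.35 CPM in *Rik*-null and 2.02 to 3.31 CPM in WT brains, and *Aanat*, the melatonin-synthesis enzyme, fell, to 0.763 ± 0.145 CPM in *Rik*-null brains, against 1.31 ± 0.379 CPM in WT brains (SD, n = 8 and 6; log2 fold change −0.82, SE 0.19, edgeR adjusted p = 0.0280). It kept this call in 8 of the 14 fits that left out 1 library, losing it without *Rik*-null 2, *Rik*-null 4, *Rik*-null 5, WT 4, WT 5 or WT 6, and lost it with labelled sex as a term, at adjusted p = 0.204 (edgeR). *Gngt2*, at 0.534 and 0.829 CPM, did not pass. The rest of the list went the other way. *Tph1* had 0.542 CPM in *Rik*-null and 0.427 CPM in WT brains, *Crx* 0.129 and 0.0292 CPM, and *Asmt* 0.131 and 0.0747 CPM on average. *Tph1* did not pass the test, and *Crx* and *Asmt* had too few counts to be tested. The 2 markers of the subcommissural organ, *Sspo* and *Car3*, summed to 4.43 to 12.2 CPM in *Rik*-null and 3.92 to 10.4 CPM in WT brains, and the 5 red blood cell genes, led by *Hbb-bs* and *Hba-a1*, to 128 to 232 and 109 to 222 CPM, with 0 calls by edgeR or DESeq2 in either list and 0 at an unadjusted p under 0.05.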

How the data were processed

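Bulk RNA of sagittally cut brains of 8 *Rik*-null and 6 WT pups at P14 was sequenced, and 1 table of 56748 genes was deposited with a count and an FPKM value per library. No aligner or counter is given in the sources used here, and mm10 is the label of the build, but the table's coordinates are of another build, so positions were taken from RefSeq GRCm38.p6. The deposited counts are whole numbers with no normalization. The deposited FPKM values were made by the authors from the same reads and were used only to compare levels between genes. The table's columns of the authors' own comparison (group means, log2 fold changes, p-values) were not used. The number of sample columns of no listed sample was 0.

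The 10 genes and the lists were chosen with earlier results of these data known. Genes passing edgeR's count filter (18170) were fitted with the quasi-likelihood test and TMM factors (edgeR 4.0.16, R 4.3.3), with Benjamini-Hochberg adjustment over all of them and a threshold of 0.05. CPM values use TMM-scaled library sizes, and log2 CPM has a prior count of 2. The fit was tested on simulated data. Where no separate litters are stated, p-values measure the spread between these brains. Counting error covers reads, not molecules. Library totals ran from 15183130 to 30993890 counts.

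Named were the 10 genes, the 10 other genes of at least 1 CPM most like their mean deviation, in each list up to 4 called genes of smallest adjusted p and the 2 of highest mean CPM, and *Rik*. Genes named beyond this rule (*Mstn*, *Gdf11*, *Krt18*, *Krt8*, *Slc22a8*, *Rpe65*, *Rgr*, *Tph1*, *Crx*, *Asmt*, *Xist*, *Ddx3y*) were chosen after their values were seen. Where a name was on 2 gene identifiers, the one with most counts was taken. No 2 libraries of a group agreed within sampling noise, since the chi-square per gene was 2.71 or more in every pair. Alternatives used DESeq2 1.42.0, other scaling, other filters, added terms and left-out libraries.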

Additional observations from a re-analysis of the deposited data

Results flagged for a closer look

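Among 80 groups of libraries looked at, 6 held 1 library far from the rest of its group by Dixon's test, and chance alone flags about 1 in 20 groups. *Wfikkn2* had 10.5 CPM in *Rik*-null 8, where the next *Rik*-null library had 7.22 CPM. Pituitary transcripts gave 3 of the 6: *Gh* had 184.6 CPM in *Rik*-null 8 and 0.961 CPM in WT 5, and *Pomc* had 4.70 CPM in WT 5. The retinal pigment markers gave the other 2: *Pmel* had 0.657 CPM in *Rik*-null 1, where the next had 1.33 CPM, and *Best1* had 1.49 CPM in WT 4, where the next had 1.09 CPM.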

How the results depend on the processing

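The 280 alternative values of the log2 fold changes of the 10 genes all lay within 1 SD between libraries of the reported ones, and 11 were below 0, all of *Kl* or *Kcnj13*. The count of the 10 genes called higher was 5 to 7 with DESeq2's test, other scaling, other filters and the library set as a block. It was 3 with labelled sex as a term, 0 with that term and without WT 1 and WT 6, 0 within set A and 4 within set B, 3 without *Rik*-null 5 and 8 and 2 without WT 1 and WT 6, and 3 to 5 when single libraries were left out. The further choroid plexus genes called (2) came to 11 with the set block (9 higher, 2 lower) and to 0 with no filter, with either sex term, within either set, and without either pair of libraries, and single left-out libraries gave 0 to 2. The partner genes called (2) came to 4 with the set block (3 higher, 1 lower), 1 with no filter, 1 within set B, which was lower in *Rik*-null where both reported calls were higher, and 0 with either sex term, within set A or without either pair, and single left-out libraries gave 0 to 3. Over all genes the 602 calls became 1133 with DESeq2, 359 with no filter, 153 with labelled sex, 8 with labelled sex and without WT 1 and WT 6, 1522 with the set block, 46 within set A and 576 within set B, 310 without *Rik*-null 5 and 8, and 168 without WT 1 and WT 6, and single left-out libraries gave 287 to 820. The cause was not tested. The median r among the 10 genes was 0.0900 within set B, and single left-out libraries gave 0.33 to 0.46. The fits within the sets and the sex term without WT 1 and WT 6 were added after seeing the data.

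Replicate numbers 1 to 6 occur in both groups. Deviations of same-numbered libraries correlated at 0.20, 0.30, 0.32, −0.34, −0.11 and 0.21, so the numbers were taken as names only. With the replicate block, 3 of the 10 genes, 2 further choroid plexus genes (1 higher, 1 lower), 1 partner gene and 763 of all genes were called, and with the same libraries and no replicate block 3, 2, 0 and 657.

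Alternatives for the other named genes numbered 810, which include those of genes with no reported call and thus none to lose. All 91 losses fell on genes with a reported call, so 91 is not a share of 810. In 9 alternatives a gene with no reported call gained one. When single libraries were left out, reported calls held in 3 of the 14 fits for *Col8a1*, the fewest, and in all 14 for *Dcn*, *Slc22a6* and *Mfsd2a*. *Kcnj13* had 10 to 51 counts a library, with a counting error of 19.7% at its mean beside a fitted CV between libraries of 22.4%.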
